A study of Mus musculus with 48 samples.

Results

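V580_D6 cells, mouse embryonic stem cells (ESCs) after 6 days of induction with vitamin C (Vc) and AM580, were compared with E12.5_GC cells, the cells taken from female mouse gonads at E12.5 (E for embryonic day). The libraries were chosen by their labels and not by any measured value, and were 3 of V580_D6 and 3 of E12.5_GC, 6 of the 48 samples in the series. Both groups were of the C57BL/6 strain, carried no engineered allele in their labels, and were measured as poly(A) mRNA by bulk RNA sequencing. The V580_D6 cells were labelled gonadal somatic cell-like cells (GSCLCs); by the study's methods they came from female ESCs plated on fibronectin, and SSEA1-positive cells were removed magnetically before GSCLCs were aggregated, with a CD63 sort of V580_D6 cells in addition. Whether the cells of these libraries had been through either step is not stated in the sources used here. For gonads, the methods describe removal of SSEA1-positive germ cells by magnetic sorting before somatic cells were collected, while the E12.5_GC labels name only the female gonad as the source. Nothing in the labels says whether replicates were separate cultures or separate pools of embryos, so the p-values measure the spread between these libraries. The neighbouring days of the same induction, V580_D4, V580_D8 and V580_D10, with 3 libraries each, were used to place day 6 in time.

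The gonad forms from a thickened coelomic epithelium on the mesonephros, and its first somatic cells depend on transcription factors such as Gata4, Wt1, Nr5a1, Lhx9 and Emx2. In the female, supporting cells then take the pre-granulosa path, in which Wnt4, Rspo1, Foxl2 and Fst act, and they surround the germ cells and feed them signals such as Kit ligand. Retinoic acid (RA), which enters the ovary largely from the mesonephros, drives germ cells into meiosis through its nuclear receptors, and the Cyp26 enzymes break it down. AM580 is a synthetic agonist of the receptor RARα, and Vc is a cofactor of enzymes that remove methyl groups from DNA and histones.

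Expression was given as FPKM, fragments per kilobase of exon scaled by library depth, for 13682 genes. Depth was estimated at 22.23 to 23.86 M fragments (M for mega) for V580_D6 and 19.58 to 27.79 M fragments for E12.5_GC. The V580_D6 libraries lay close together, with a root mean square difference between replicates of 0.0891 to 0.101 on the log2 scale, against 0.289 to 0.433 for E12.5_GC. The E12.5_GC libraries also differed from each other along exon length, with Spearman correlations across genes of -0.67 to 0.53, while the V580_D6 pairs lay between -0.03 and 0.03; genes are not independent replicates. Over 11489 tested genes the D6-to-gonad difference correlated with exon length at 0.167, and its part in single genes was tested by removing the length trend.

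Day 6 cells and gonad cells held most tested genes within 2-fold of each other, and a limited set was sharply unlike. Of 11512 tested genes, 8963 (77.9%) had a 95% interval of the log2 fold change inside 2-fold. A further 1747 (15.2%) were called different, at an adjusted p below 0.05 in limma and a change of at least 2-fold on the log2(FPKM + 1) scale, which understates the change of low genes. In V580_D6, 813 (7.06%) were higher and 934 (8.11%) lower, and 802 were neither called nor placed inside 2-fold. These shares of all genes tested are the background for the list counts below. Without the fold threshold 4029 were higher and 3689 lower, and in 7494 (65.1%) the 3 and 3 libraries did not overlap. The intervals use 1 spread per gene shared by the 15 libraries of the fit, of which E12.5_GC varied most. The count inside 2-fold was 8464 with the 6 libraries alone and 8467 with group-specific variances. Scaling every library to an equal sum shifted the median gene from 0.03 to 0.17 and turned the split to 1400 higher and 1030 lower. At the extremes, 34 genes reached 5 FPKM in all V580_D6 libraries while staying under 0.5 FPKM in all E12.5_GC libraries, and 50 genes did the reverse.

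**Figure D1:**
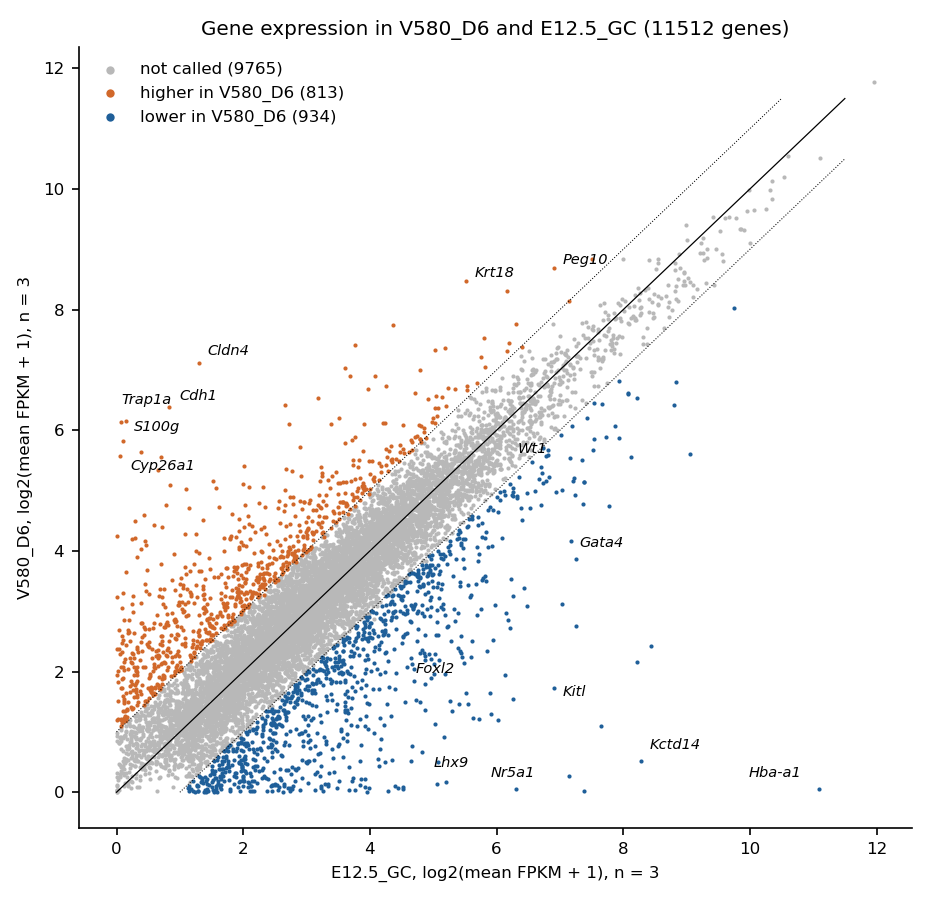
Each point is 1 of 11512 tested genes, with log2(mean FPKM + 1) of the 3 E12.5_GC libraries on the x axis and of the 3 V580_D6 libraries on the y axis; the dotted lines mark 2-fold. Most genes lie along the diagonal (9765 grey, not called), the 813 orange genes are higher in V580_D6 and the 934 blue genes, among them Nr5a1, Lhx9 and Kctd14, are lower.

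The transcription factors of the gonad primordium split into factors present at day 6 near the gonad's level, factors present at a fraction of it, and factors that were almost not read. Of 15 listed factors 12 were tested, of which 3 were higher in V580_D6, 6 were lower and Wt1 and Cbx2 lay inside 2-fold. The shares over all genes tested were 7.06%, 8.11% and 77.9%. The median log2 fold change of the 12 was -0.88, against 0.03 over all genes tested. The other 3, among them Tcf21 and Nr0b1, had no row in the FPKM table.

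Nr5a1, the nuclear receptor that drives steroidogenic genes (GRCm38 chromosome 2, 38692656 to 38714542, minus strand), stood at 71.7, 95.1 and 67.8 FPKM in E12.5_GC. In V580_D6 the same gene gave 0.0828, 0.0106 and 0.0198 FPKM. Every day 6 library lay far below every gonad library, and the log2 fold change was -6.24 (SE 0.0932, adjusted p = 7.13e-16). Lhx9, a LIM homeobox factor needed for gonad formation (chromosome 1, 138825186 to 138848577, minus strand), read 38.4, 31.6 and 37.2 FPKM in the gonad and 0.0878, 0.166 and 0.124 FPKM at day 6, a change of -5.02 (SE 0.0654, adjusted p = 1.39e-16). Both were at trace level at every induction day, the highest mean being 0.0559 FPKM for Nr5a1 at V580_D4 and 0.126 FPKM for Lhx9 at V580_D6.

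Gata4, a zinc finger factor that acts upstream of Nr5a1 in the mouse gonad (chromosome 14, 63198922 to 63271692, minus strand), was read at both places but not at the same level. It stood at 135, 147 and 148 FPKM in E12.5_GC and at 17.6, 15.96 and 17.5 FPKM in V580_D6, with a log2 fold change of -3.004 (SE 0.0583, adjusted p = 1.06e-14). Its partner Gata6 (log2 fold change -1.14), its cofactor Zfpm2 (-1.09) and the homeobox factor Emx2 (-1.30) were lower by smaller steps. For Zfpm2 only the call at 2-fold rested on 1 gonad library: the change was -0.91 without E12.5_GC replicate 3, under that line. Its gonad and day 6 values did not overlap.

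Wt1, the zinc finger factor of the coelomic epithelium and the early gonad (chromosome 2, 105126529 to 105173616, plus strand), came closest to the gonad among the defining factors. Its FPKM values were 67.0, 64.5 and 86.0 in E12.5_GC and 42.9, 47.4 and 45.1 in V580_D6. The groups did not overlap. The difference of -0.66 had a 95% interval of -0.85 to -0.47, inside 2-fold by the spread shared across the fit. Cbx2, a Polycomb protein of the gonad, was likewise inside 2-fold at 0.75.

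Factors that were higher at day 6 are also used in neighbouring mesoderm. Nr2f2, an orphan receptor of the interstitium and of many mesenchymes, was at 47.0, 50.6 and 50.6 FPKM against 21.1, 15.7 and 19.2 FPKM in the gonad (log2 fold change 1.37). Osr1, an early factor of intermediate and lateral plate mesoderm, was at 10.9, 11.2 and 10.9 FPKM against 3.07, 2.66 and 1.95 FPKM (1.76). Six4 was higher too, by 1.51, from under 1 FPKM in all 3 gonad libraries.

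**Figure D2:**
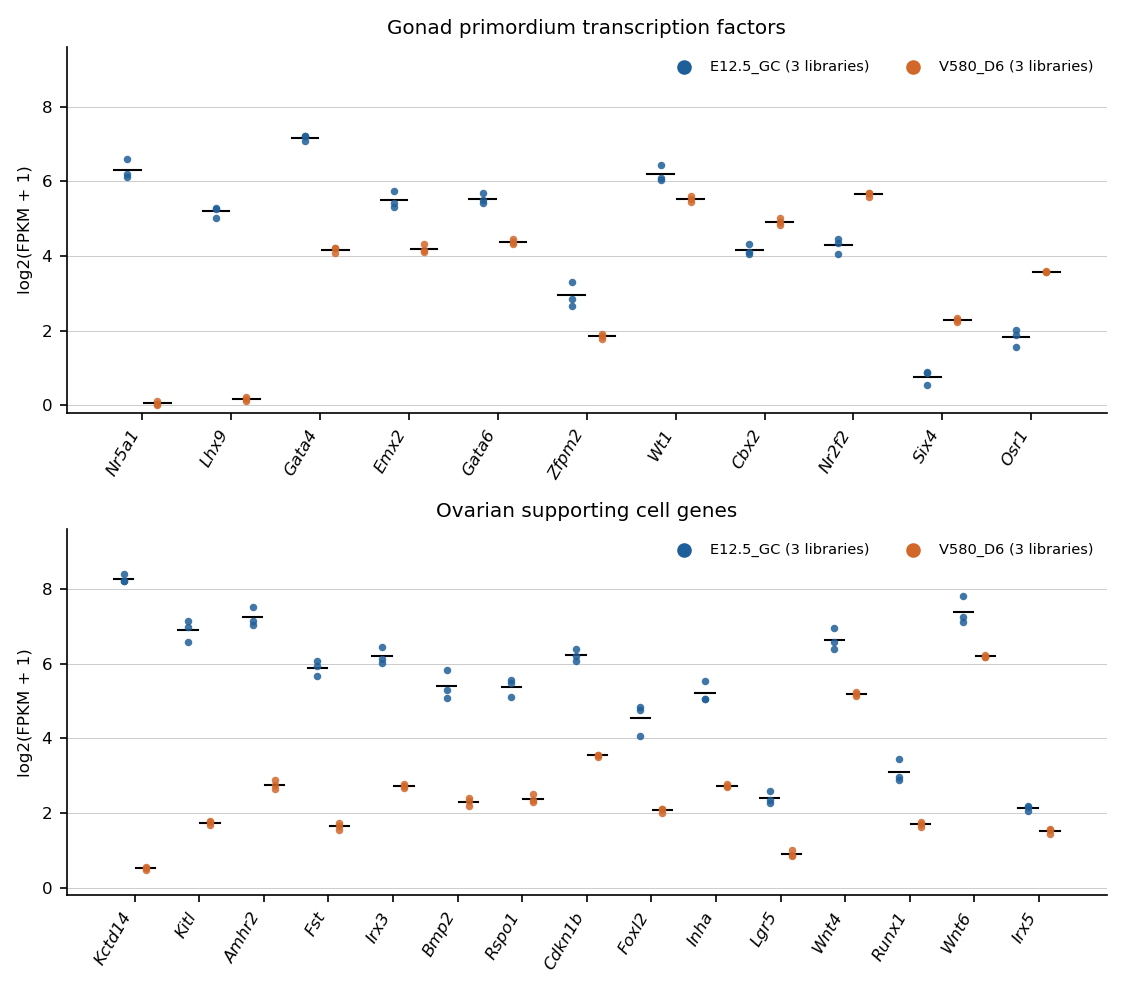
Each point is 1 library and each black bar the mean of 3, on a log2(FPKM + 1) axis, for 11 gonad primordium factors (upper panel) and the 15 tested ovarian supporting cell genes (lower panel), ordered by their fold change. Nr5a1, Lhx9 and Kctd14 drop to near 0 in V580_D6 (orange), Wt1 stays close to the gonad (blue), and no tested ovarian supporting cell gene is higher in V580_D6.

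Genes of the ovarian supporting lineage were lower at day 6 than in E12.5_GC nearly throughout. Of 16 listed genes 15 were tested, 14 were lower, none was higher, and Irx5 (log2 fold change -0.62) lay inside 2-fold; Esr2 was under the filter on low values in both groups. The median change was -2.68, and the share of 14 in 15 compares with 8.11% of all genes called lower. These counts are against E12.5_GC alone. In 2 further E12.5 gonadal somatic libraries, deposited as counts, some of these genes stood at other levels. Irx3 had 332 and 300 counts there, against 5296, 5588 and 3423 recovered fragments in E12.5_GC. Amhr2 went the other way, with 14691 and 13976 counts against 7197, 8644 and 5551 fragments. Day 6 was not tested against those libraries.

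Kctd14, a gene of fetal pre-granulosa cells (chromosome 7, 97451323 to 97459557, plus strand), stood at 294, 340 and 297 FPKM in E12.5_GC. It gave 0.461, 0.438 and 0.392 FPKM in V580_D6. No other gene of the supporting list differed as much, with a log2 fold change of -7.76 (SE 0.0776, adjusted p = 1.01e-17). Kitl, which encodes Kit ligand, the survival signal for germ cells (chromosome 10, 100015630 to 100100416, plus strand), was at 124, 94.7 and 139 FPKM in the gonad and at 2.41, 2.18 and 2.36 FPKM at day 6, a change of -5.16 (SE 0.103). Amhr2, the receptor of anti-Müllerian hormone, differed by -4.48, from 129, 184 and 141 FPKM to 5.25, 6.35 and 5.68 FPKM.

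Secreted regulators of ovarian fate were present at day 6 at unequal shares of the gonad level. Fst, an activin antagonist, was at 50.01, 59.8 and 65.9 FPKM in the gonad and at 2.31, 1.92 and 2.16 FPKM at day 6 (log2 fold change -4.24). Rspo1, the R-spondin that strengthens Wnt signals, differed by -2.997 and Bmp2 by -3.10. Wnt4, the Wnt ligand of ovarian determination, was nearer, at 82.7, 124 and 94.9 FPKM against 35.6, 37.0 and 34.1 FPKM (-1.45). Wnt6 differed by -1.20, which became -0.99 without E12.5_GC replicate 2.

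Foxl2, the forkhead factor of granulosa cells (chromosome 9, 98955288 to 98958543, plus strand), was at 27.6, 26.1 and 15.8 FPKM in the gonad and at 3.01, 3.34 and 3.29 FPKM at day 6. The lowest gonad library stood well above the highest day 6 library, and the log2 fold change was -2.48 (SE 0.153, adjusted p = 2.08e-09). Irx3, a homeobox factor of pre-granulosa cells, differed by -3.48, Cdkn1b, the cell cycle inhibitor of arrested supporting cells, by -2.68, and Inha, the inhibin alpha subunit, by -2.47. Runx1 (-1.40) and Lgr5 (-1.51) were low in both groups, at no more than 9.85 and 5.05 FPKM in any gonad library. In bulk samples, fewer cells of a type and less RNA per cell cannot be told apart.

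Other gonadal lineages gave mixed pictures. Of 4 tested Sertoli cell genes, Sox9, the testis-determining target of Sry, lay inside 2-fold at 0.53 by the spread shared across the fit. It stood at 16.99, 8.37 and 7.52 FPKM in the gonad and at 16.4, 14.04 and 15.6 FPKM at day 6, values that overlapped. The gonad values alone spanned more than 2-fold. Aard was lower (log2 fold change -2.32) and Cyp26b1, an RA-degrading enzyme of the fetal testis, was higher (3.67). Amh and Dhh, hormone and signal of Sertoli cells, stayed under 1 FPKM in all 6 libraries. Among 9 tested interstitial and steroidogenic genes, 5 were lower and 2 higher, against 8.11% and 7.06% of all genes tested, with a median of -1.11. Maf, a transcription factor of interstitial cells, stood at 11.6, 8.81 and 11.02 FPKM in the gonad and at 0.809, 0.649 and 0.768 FPKM at day 6 (log2 fold change -2.71). Hsd3b1, a steroidogenic enzyme, stood at 6.79, 14.04 and 4.93 FPKM in the gonad and was carried by only 2 fragments in the 3 day 6 libraries together. Ptch1 (1.86) and Gli1 (1.98), which respond to Hedgehog signals, were the members higher at day 6. Nr4a1 differed by -1.11, and by -0.92 without E12.5_GC replicate 2; Pdgfra stood at -0.995, just inside the fold line, and was called when its gonad replicate 2 was left out.

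Coelomic epithelium and mesothelium genes were the gonad-related list in which no member was called lower at day 6 by limma. Of 8 tested genes, 3 were higher and 3 lay inside 2-fold, against 7.06% and 77.9% of all genes tested. The median was 0.69, and edgeR on recovered fragments called 1 member lower. Upk3b, a uroplakin of mesothelium, stood at 42.5, 47.4 and 39.4 FPKM in the gonad and at 59.6, 67.8 and 61.6 FPKM at day 6, a difference of 0.54 inside 2-fold. Aldh1a2, which makes RA in mesothelium and mesoderm, stood at 89.6, 93.4 and 86.8 FPKM and at 64.5, 75.4 and 70.0 FPKM, a difference of -0.36 inside 2-fold. The 3 higher genes were Krt19, a keratin (log2 fold change 3.68), Msln, mesothelin (2.496), and Lrrn4 (2.18). Krt19 rose to 172, 166 and 170 FPKM from 12.4, 16.2 and 9.06 FPKM. The summed FPKM of the 5 mesothelial markers was 273 to 281 at day 6 and 61.0 to 73.4 in the gonad, while that of the 5 gonadal somatic markers was 76.8 to 82.4 and 354 to 392. Most of the mesothelial sum at day 6 was Krt19, with a mean of 169 FPKM against 12.6 FPKM in the gonad.

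Genes of the mesonephros and intermediate mesoderm also moved both ways. Of 7 tested, 3 were higher at day 6, among them Gata3 (log2 fold change 1.97) and Hoxb7 (1.43), and Ret (-1.92) and Pax8 (-1.16), a receptor and a factor of the nephric lineage, were lower. Of all genes tested 7.06% were higher and 8.11% lower. Cdh16, a cadherin of renal tubules, was listed at 0 in all 3 day 6 libraries and at 1.02, 0.382 and 0.323 FPKM in the gonad.

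The Hox genes, which mark position along the body axis, differed in both directions. Of 17 tested, 10 were higher at day 6, 4 were lower and 3 lay inside 2-fold, with a median of 1.43. The shares over all genes tested were 7.06%, 8.11% and 77.9%. All 10 higher genes had numbers from 3 to 9 and belonged to the A, B and C clusters. Only Hox genes with a row in the FPKM table were listed. Hoxa3 was the only A cluster gene among them, and Hoxd3, Hoxd4 and Hoxd11 were under the filter on low values. The largest of these changes were those of Hoxb4, at 17.02, 18.7 and 19.7 FPKM against 1.71, 1.25 and 1.19 FPKM (log2 fold change 3.04), Hoxc5 (2.83) and Hoxb5 (2.52). The 4 lower genes were Hoxd8, Hoxd9, Hoxd10 and Hoxc10. Hoxd9 stood at 58.7, 67.0 and 52.5 FPKM in the gonad and at 1.21, 1.75 and 1.41 FPKM at day 6 (-4.62), and Hoxd10 at 8.997, 8.10 and 6.16 FPKM against 3 fragments in all day 6 libraries together. Hoxc6, Hoxc8 and Hoxc9 were inside 2-fold.

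Of 16 tested RA pathway genes, 7 were higher at day 6 and 2 were lower, against 7.06% and 8.11% of all genes tested, with a median of 0.97. Cyp26a1, the RA-degrading enzyme that RA itself induces (chromosome 19, 37697798 to 37701536, plus strand), was nearly unread in the gonad, at 0.0406, 0.0481 and 0.0288 FPKM. At day 6 it stood at 50.6, 44.7 and 45.5 FPKM. The groups were wholly apart, with a log2 fold change of 5.53 (SE 0.0615, adjusted p = 2.32e-17). Its relative Cyp26b1 stood at 36.3, 32.9 and 34.5 FPKM against 2.81, 1.21 and 1.55 FPKM.

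Among the receptors, Rarb, the RA-inducible receptor RARβ (chromosome 14, 16430839 to 16819156, minus strand), was at 6.87, 6.96 and 6.598 FPKM at day 6 and at 1.22, 0.640 and 0.650 FPKM in the gonad (log2 fold change 2.10, SE 0.101). Rarg was higher by 1.36, whereas Rara, which encodes the receptor that AM580 binds, lay inside 2-fold at 0.08, as did Rxra and Rxrb. Of the enzymes, Rdh10 (1.85) and Dhrs3 (1.12), a retinol dehydrogenase and a retinal reductase, were higher. Aldh1a1 (-1.60) and Aldh1a3 (-1.72), enzymes that make RA, were lower at day 6.

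RA receptors bind as dimers to a direct repeat of a hexamer spaced by 5 bases, so the promoters of these genes were searched for it. The windows ran from 250 bases before to 50 bases after the RefSeq gene start, and the letters searched were AGGTCA, the variant AGTTCA, the variant GGTTCA and the variant GGGTCA, any of them followed by any other in the same orientation after 5 bases, on both strands. Of 27025 promoters 26 (0.0962%) held such a repeat; among 9095 promoters of tested genes there were 2 (0.022%), those of Cyp26a1 and Rarb, both higher at day 6. So few promoters held the repeat that no direction can be read from it, and that of Cyp26b1 had no match in this window. The 250 bases before each start are shown because these were the matches among tested genes, with the hexamers in capitals. The Rarb window is GRCm38.p6 chr14:16575477-16575726, minus strand, inside the longer span of the gene, and the repeat begins at position -53 from the start. The Cyp26a1 window is chr19:37697558-37697807, plus strand, and its repeat begins at -32 and reads on the opposite strand.
Rarb: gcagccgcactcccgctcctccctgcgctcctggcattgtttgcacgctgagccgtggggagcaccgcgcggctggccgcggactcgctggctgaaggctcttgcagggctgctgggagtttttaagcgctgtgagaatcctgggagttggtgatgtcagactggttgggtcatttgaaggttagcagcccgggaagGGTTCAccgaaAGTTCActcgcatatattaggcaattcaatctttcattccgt
Cyp26a1: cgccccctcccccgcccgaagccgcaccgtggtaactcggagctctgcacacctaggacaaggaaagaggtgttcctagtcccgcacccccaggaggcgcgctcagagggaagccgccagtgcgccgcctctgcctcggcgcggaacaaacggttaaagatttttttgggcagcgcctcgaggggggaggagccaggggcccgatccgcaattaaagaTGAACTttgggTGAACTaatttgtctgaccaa
A match of letters is a description of the sequence and does not show that a receptor was bound there.

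Genes of epithelial junctions and placenta-associated genes were higher in V580_D6 in every tested member. All 13 tested epithelial junction and keratin genes were higher, against 7.06% of all genes, with a median of 2.98. Cdh1, E-cadherin (chromosome 8, 106603351 to 106670246, plus strand), was at 88.0, 77.6 and 83.5 FPKM at day 6 and at 1.58, 0.457 and 0.290 FPKM in the gonad, a log2 fold change of 5.63 (SE 0.178, adjusted p = 1.16e-12). Cldn4, a claudin of tight junctions, stood at 147, 128 and 137 FPKM against 2.04, 1.29 and 1.10 FPKM (5.82). Cldn7 (4.87), Cldn3 (4.72), the protease inhibitor gene Spint1 (4.27) and Epcam (3.77) moved alongside, as did the desmosome-associated gene Perp (5.26) and the gap junction gene Gjb2 (4.20). Krt18 and Krt8, the simple epithelial keratins, were higher by 2.98 and 2.16, and Krt18 reached 365, 346 and 356 FPKM. In 14 mesenchymal and matrix genes 2 were higher and 4 lower, against 7.06% and 8.11% of all genes, and the median was 0.06. Vim, vimentin, was at 198, 248 and 186 FPKM in the gonad and at 56.7, 59.98 and 58.5 FPKM at day 6 (-1.82), whereas Acta2, smooth muscle actin, was higher by 2.84. Col1a1 lay inside 2-fold at 0.03. Twist1 was called at 1.02, and was 0.72 without E12.5_GC replicate 3 and 0.99 without V580_D6 replicate 3.

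S100g, a calcium-binding protein of calcium-transporting epithelia (chromosome X, 162961992 to 162964599, minus strand), gave the largest rise under the rule for named genes. It stood at 76.0, 60.05 and 71.7 FPKM at day 6, against only 2 fragments in the 3 gonad libraries together (log2 fold change 6.05, SE 0.136). Trap1a, a gene of extraembryonic tissue and tumours on the X chromosome (139333683 to 139338169, plus strand), was at 74.3, 66.5 and 69.4 FPKM against 0.0611, 0.217 and 0.0433 FPKM (6.01, SE 0.0639). Cxcl15, a chemokine, had no fragment in any gonad library and 20.2, 16.4 and 17.5 FPKM at day 6, at least 905-fold higher against a floor of 3 fragments over the gonad group. All 5 tested placenta-associated genes, of 15 listed, were higher, against 7.06% of all genes tested, with a median of 2.04. Beside Trap1a these were Gata2 (3.14), Plet1 (2.04), Peg10 (1.85) and Krt7 (1.80). Cdx2, Elf5, Hand1 and other defining trophoblast genes had no row in the table, and Eomes stayed at or under 0.232 FPKM in all 6 libraries.

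Of 13 tested extraembryonic endoderm genes, 5 were higher, 1 was lower and 7 lay inside 2-fold, with a median of 0.70. The shares over all genes tested were 7.06%, 8.11% and 77.9%. Foxa2, a forkhead factor of endoderm, stood at 18.3, 16.8 and 17.3 FPKM at day 6 and at 0.440, 0.108 and 0.0215 FPKM in the gonad (log2 fold change 3.97, SE 0.105). The endocytic receptor genes Cubn (2.74), Lrp2 (1.89) and Dab2 (1.59) were higher, as was Sox17 (1.05); Thbd was lower (-1.22). The basement membrane genes Col4a1 (0.64), Col4a2 (0.78), Lama1 (0.13) and Sparc (0.08) were inside 2-fold. Of the 6 markers set for this cell type, Afp, Ttr and Apoa1 had no row in the FPKM table, and the other 3 summed to 28.3 to 31.8 FPKM at day 6 and 1.89 to 4.81 FPKM in the gonad.

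**Figure D3:**
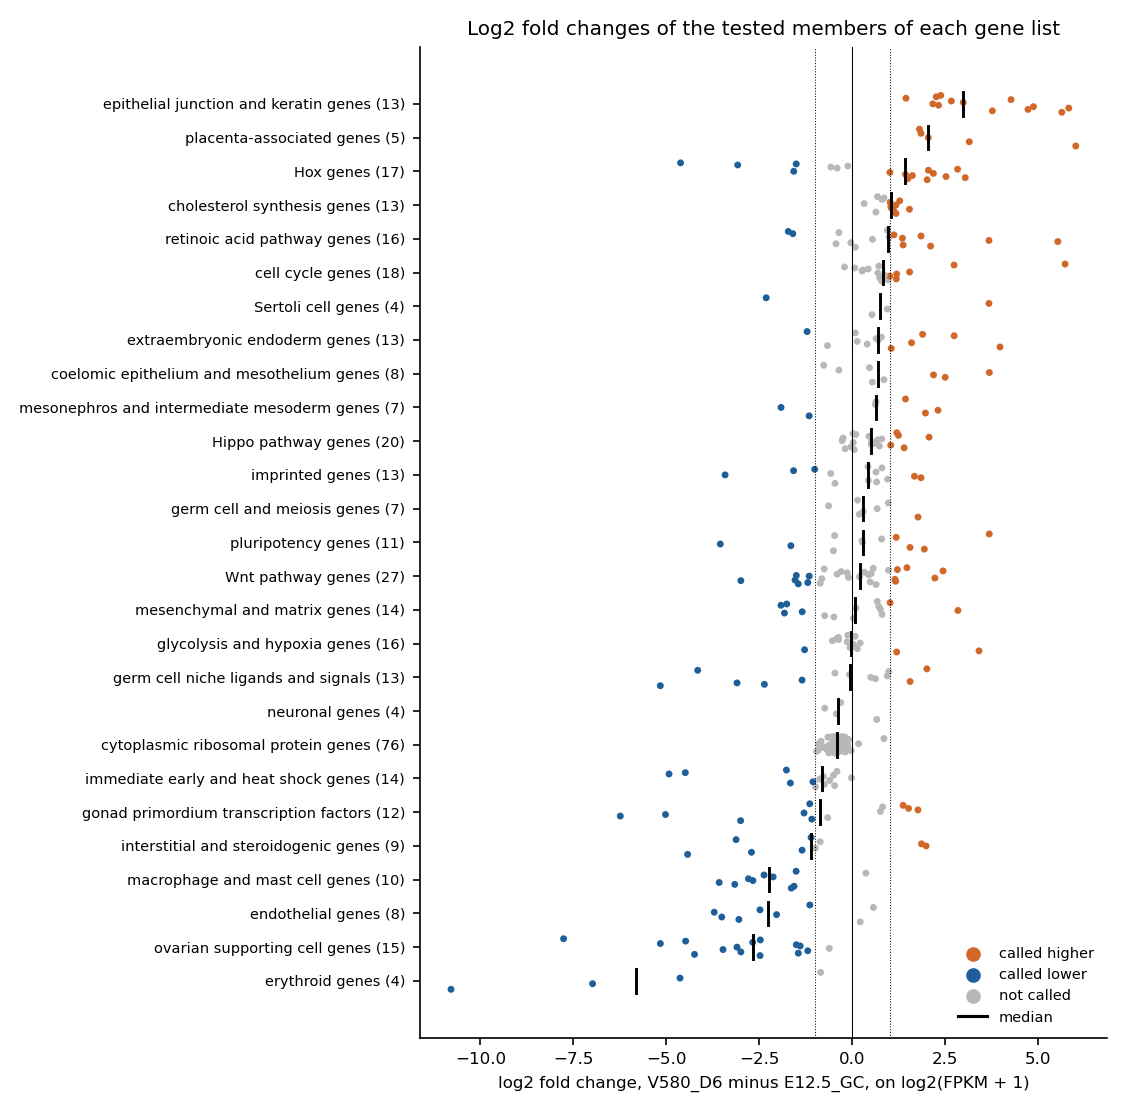
Each point is a tested gene placed by its log2 fold change (V580_D6 minus E12.5_GC, on log2(FPKM + 1)) in its list, with the number tested in brackets; black bars are medians and dotted lines mark 2-fold. The epithelial list lies wholly above 2-fold with a median of 2.98, and the ovarian supporting list lies below 0 with a median of -2.68.

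Traces of the starting ESC state were uneven. Pou5f1, a core pluripotency factor, was at 0.371, 0.320 and 0.410 FPKM at day 6 and at 1.15, 1.31 and 0.477 FPKM in the gonad, and Nanog was under the filter in both. Of 11 tested pluripotency genes 4 were higher than in the gonad and 2 were lower, against 7.06% and 8.11% of all genes tested. Their median was 0.27. Lin28a, an RNA-binding protein of early embryonic cells, stood at 20.6, 19.3 and 20.6 FPKM against 0.802, 0.619 and 0.537 FPKM (log2 fold change 3.68). Sox2 (1.94), Zfp42 (1.55) and Tdgf1 (1.18) were higher at levels below 5 FPKM. The lower genes were Klf2 (-3.55) and Klf4 (-1.65), and Klf2 ranged over 235, 117 and 36.5 FPKM among the gonad libraries. Of 7 tested germ cell and meiosis genes, Ddx4, a germ cell RNA helicase, was higher (1.76) at 4.94, 4.45 and 4.06 FPKM. No other was called by limma, where 7.06% of all genes tested were higher and 8.11% lower. EdgeR called 3 higher and 1 lower. Dppa3, a gene of early germ cells, reached 2.06 FPKM in 1 gonad library and no more than 0.0984 FPKM at day 6.

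Signals offered to germ cells differed one by one. Of 13 tested niche ligands and signals, 5 were lower, 2 were higher and 4 lay inside 2-fold, against 8.11%, 7.06% and 77.9% of all genes tested. EdgeR on recovered reads called 5 lower and 5 higher. Beside Kitl and Bmp2, the lower genes were Inhbb, an activin subunit, at 24.9, 26.8 and 30.2 FPKM against 0.639, 0.497 and 0.611 FPKM (log2 fold change -4.16), Cxcl12, the chemokine that guides germ cells (-2.36), and Bmp5 (-1.35). Bmp4, which induces germ cell fate in the epiblast, was higher at 7.95, 8.98 and 8.84 FPKM against 2.67, 2.24 and 1.93 FPKM (1.55), and Lif was higher by 2.00. Igf1 and Igf2 lay inside 2-fold.

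Of 27 tested Wnt pathway genes, 6 were higher, 6 lower and 11 inside 2-fold, with a median of 0.19. Of all genes tested 7.06% were higher, 8.11% lower and 77.9% inside 2-fold, so a larger share of this list was called, in both directions. The secreted inhibitor genes Notum (log2 fold change 2.44), Dkk3 (1.47) and Sfrp1 (1.21), the receptors Fzd7 (2.22) and Fzd2 (1.15) and the ligand Wnt11 (1.16) were higher. Rspo1, the ligands Wnt4 and Wnt6 and the receptors Fzd1 (-1.54), Lgr4 (-1.16) and Lgr5 were lower. Ctnnb1, β-catenin, the common effector, stood at 222, 216 and 217 FPKM against 178, 149 and 157 FPKM, and the targets Axin2 (0.33) and Nkd1 (-0.30) and the factor Lef1 (-0.41) were inside 2-fold. Of 20 tested Hippo pathway genes, 14 lay inside 2-fold, 5 were higher and none was lower, with a median of 0.51. The shares over all genes tested were 77.9%, 7.06% and 8.11%. Yap1, the pathway's effector, was at 31.9, 30.8 and 32.0 FPKM at day 6 and at 31.5, 27.2 and 32.9 FPKM in the gonad, values that overlapped, and Cyr61 (0.09) and Ctgf (0.02), common Yap1 targets, were inside 2-fold. The higher members were Wwc1 (2.06), Tead1 (1.39), Amotl2 (1.24), Ajuba (1.20) and Tead4 (1.03).

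Of 18 cell cycle genes 6 were higher, against 7.06% of all genes tested, and none lower, with a median of 0.82. Ccne1, a cyclin of S phase entry (log2 fold change 1.54), Plk1 (1.19) and Ccnb1 (1.18) were higher. Pcna (0.26), Mcm2 (0.28) and Mcm6 (-0.21) were inside 2-fold. The list holds inhibitors too: Cdkn2a, which encodes p16 and p19Arf, stood at 58.3, 52.3 and 55.6 FPKM at day 6 and at 0.0921, 0.0727 and 0.0436 FPKM in the gonad (5.72, SE 0.0561, adjusted p = 1.01e-17). Cdkn1a, which encodes p21, was higher by 2.73. Cdkn1c, the imprinted inhibitor p57, went the other way, from 514, 662 and 412 FPKM in the gonad to 47.3, 46.1 and 49.5 FPKM (-3.42). Of 13 tested imprinted genes 2 were higher and 3 lower, against 7.06% and 8.11% of all genes tested. Plagl1 (1.67) and Peg10 were higher, and Cdkn1c, Ndn (-1.58) and Zim1 (-1.01) were lower. The Zim1 change was -0.67 without E12.5_GC replicate 3 and -0.99 without V580_D6 replicate 2. Igf2, Mest and Dlk1 were inside 2-fold.

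Of 13 cholesterol synthesis genes 8 were higher, against 7.06% of all genes tested, and none lower, with a median of 1.04. Among the higher was Cyp51, a sterol demethylase gene (log2 fold change 1.27). Of 16 glycolysis and hypoxia genes, 12 lay inside 2-fold, a share near the 77.9% of all genes, and the median was -0.03. The glucose transporter genes Slc2a3 (3.41) and Slc2a1 (1.19) were higher and Hk1 was lower (-1.28). Gapdh, Aldoa and Fdps were read at under 8 FPKM in all 6 libraries and have near-identical copies in the genome, so their values are uncertain. No ribosomal protein gene of 76 was called by limma, and edgeR called 3 lower. By adjusted p alone 45 were lower and 1 higher, against 3689 lower and 4029 higher of all 11512 genes tested. The median was -0.42, and -0.30 after the length trend was removed.

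Beyond the supporting lineage, the largest falls included Ifitm1, an interferon-induced membrane protein gene of early germ cells and many other tissues, at 309, 444 and 283 FPKM in the gonad and 4.49, 4.69 and 3.98 FPKM at day 6 (log2 fold change -5.98, SE 0.153). Chrm4, a muscarinic receptor (-4.83), and Aldh1b1, a mitochondrial aldehyde dehydrogenase (-4.68), were also among the 12 largest falls and belong to no list.

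The remaining largest falls were in genes of blood and of stress. Hba-a1, alpha globin, stood at 4045, 1559 and 967 FPKM in E12.5_GC, and at day 6 it was carried by 2 fragments in all; Hbb-bs, beta globin, stood at 326, 116 and 55.3 FPKM and was carried by 1. Alas2, the heme synthesis enzyme of red cells, differed by -4.63. Globin genes have near-identical copies, so their split is uncertain. Of 8 endothelial genes tested 6 were lower, against 8.11% of all genes tested, and 2 lay inside 2-fold. Tie1 (-3.71), Pecam1 (-3.51) and Cdh5 (-3.05) were among the lower and Kdr was inside 2-fold at 0.21. Of 10 macrophage and mast cell genes 9 were lower, against the same 8.11%, led by C1qb (-3.58) and C1qa (-3.16). The summed markers were 982 to 4110 FPKM in the gonad against 0.0183 to 0.223 at day 6 for erythroid cells, 56.5 to 88.1 against 20 to 21.2 for endothelial cells, and 20 to 40.3 against 0.796 to 0.846 for macrophages, with Ptprc listed at 0 in all day 6 libraries. Most of the endothelial sum at day 6 was Kdr, with a mean of 17.7 FPKM against 15.5 FPKM in the gonad. The next, Cdh5, had means of 2.48 and 28.2 FPKM. Of 4 neuronal genes none was called by limma and edgeR called 1 lower. By adjusted p alone 2 were lower, as were 3689 of all 11512 genes tested. Germ cell markers summed to 3.04 to 6.02 FPKM in the gonad and 8.34 to 9.27 FPKM at day 6.

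Of 14 immediate early and heat shock genes, 5 were lower, against 8.11% of all genes tested, and none higher. By adjusted p alone 12 were lower, as were 3689 of all 11512 genes tested. The heat shock genes also varied widely among the gonad libraries. Hspa1a, a heat shock chaperone, was at 520, 70.5 and 6.403 FPKM in the gonad libraries and at 1.39, 0.970 and 1.07 FPKM at day 6 (log2 fold change -4.93, SE 0.949). Hspa1b followed the same order, at 801, 78.4 and 14.6 FPKM, and its change of -4.49 was -2.99 without E12.5_GC replicate 1. Dnajb1, their cochaperone, differed by -1.77, which was -0.93 and not called without that library. Fos, an immediate early factor, was at 881, 724 and 472 FPKM against 370, 298 and 347 FPKM (-0.99, not called), and the groups did not overlap. The part of blood, vessel and stress RNA in the other gene groups was not tested.

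**Figure D4:**
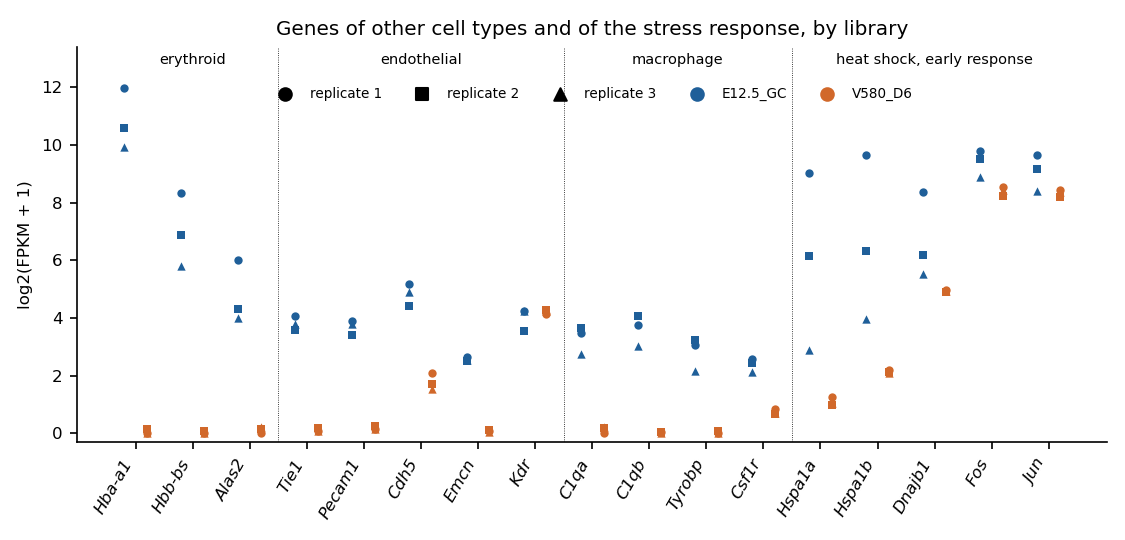
Log2(FPKM + 1) of genes of blood, vessel and macrophage cells and of the stress response, with 1 symbol per library; replicates 1, 2 and 3 are circles, squares and triangles. E12.5_GC (blue) holds these transcripts at levels that differ between its libraries, as for Hspa1a at 520, 70.5 and 6.403 FPKM, and V580_D6 (orange) holds almost none of the erythroid ones.

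Day 6 differed from its neighbouring days in a smaller number of genes than from the gonad. Against V580_D4, 393 genes (3.41%) were higher and 192 (1.67%) lower at day 6, 585 in all (5.08%). Against day 6, V580_D8 had 264 (2.29%) higher and 29 (0.252%) lower, 293 in all (2.55%). These comparisons share the day 6 libraries, so their counts are not independent.

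Between day 4 and day 6, 6 of 12 gonad primordium factors rose and none fell, against 3.41% and 1.67% of all genes tested. Gata4 rose from a mean of 4.94 ± 0.256 FPKM (SD, n = 3) at V580_D4 to 17.01 ± 0.908 at V580_D6, and its means at V580_D8 and V580_D10 were 29.97 and 46.2 FPKM, against 144 ± 7.38 in the gonad. Zfpm2, Emx2, Osr1, Nr2f2 and Gata6 rose with it. Wt1 had means of 22.8, 45.1, 59.98 and 52.4 FPKM over the days 4, 6, 8 and 10. In the supporting list Wnt4, Runx1 and Amhr2 rose from day 4 to day 6 and Irx3 fell. Wnt4 went from 3.41 ± 0.150 to 35.6 ± 1.43 FPKM and stood at 78.2 FPKM at day 10, near the gonad's 100.5 ± 21.1. Amhr2 had means of 1.25, 5.76, 24.6 and 5.53 FPKM over the 4 days, so its level at day 8 was above those at days 6 and 10.

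Pluripotency genes went down over the same interval: 7 of 11 fell from day 4 to day 6, against 1.67% of all genes tested. Among them were Pou5f1, Zfp42, Dppa5a and Lin28a, while Klf4 rose, as did 3.41% of all genes. Lin28a went from 81.2 ± 1.94 to 20.2 ± 0.762 FPKM. Cyp26a1 fell from 165 ± 8.15 to 46.9 ± 3.20 FPKM and was at 65.1 and 68.7 FPKM on days 8 and 10, and Cdh1 fell from 213 ± 12.7 to 83.1 ± 5.22 FPKM. S100g was at 2.28, 69.2, 156 and 76.6 FPKM over the 4 days. From day 6 to day 8, 7 of 14 mesenchymal and matrix genes rose and none fell, against 2.29% and 0.252% of all genes tested. Col1a1 had means of 39.1, 85.3, 282 and 782 FPKM over the 4 days, so that day 6 was the day whose level lay nearest to the gonad's 84.0.

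**Figure D5:**
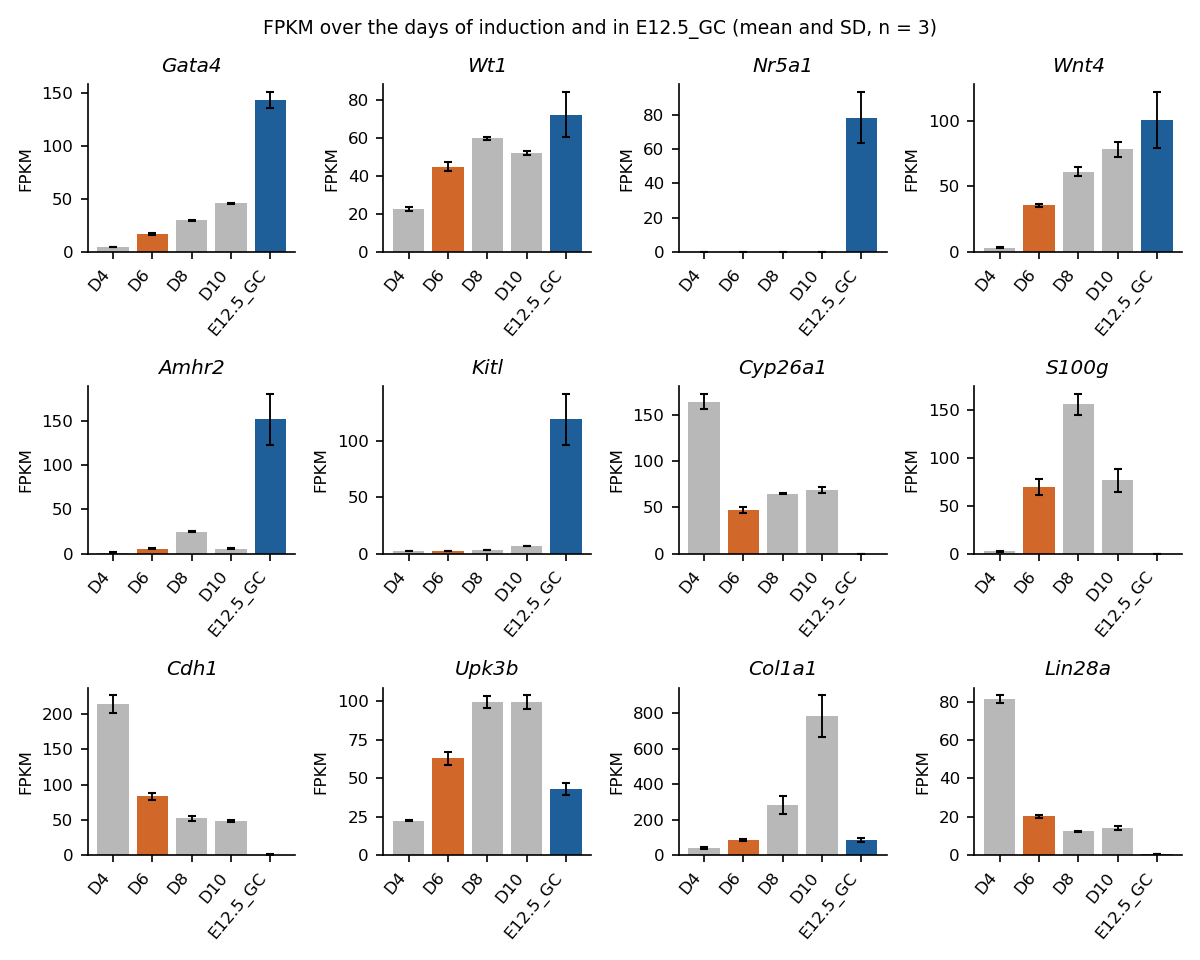
Bars are mean FPKM and error bars the SD of 3 libraries for 12 genes at days 4, 6, 8 and 10 of induction (day 6 in orange) and in E12.5_GC (blue), each panel on its own linear axis from 0. Gata4 and Wnt4 climb toward the gonad, Nr5a1 and Kitl stay far below it, and Col1a1 passes the gonad level after day 6.

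A 10x single-cell library of V580_D6 and 2 further bulk libraries of E12.5 gonadal somatic cells were deposited as counts. They gave levels for genes with no FPKM row, and second levels for genes with one. The 10x values are summed UMIs of 15315 barcodes, and since both the assay and the material differ, they are set beside the gonad's CPM, counts scaled to the library total, with no fold change and no test. Nr5a1 was at 0.0368 CPM (95% Poisson interval 0.0135 to 0.0802, counting error only) in the 10x library and at 217 and 246 CPM in the gonad. Lhx9 was at 0.823 CPM and at 346 and 342 CPM, and Kctd14 at 1.62 CPM and at 1591 and 1622 CPM. Gata4 was at 33.1 CPM and at 203 and 200.4 CPM. For all 4 genes the 10x level lay below both gonad libraries.

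Of the gonad factors without an FPKM row, Nr0b1, a partner of Nr5a1, was at 0.522 CPM in the 10x library and at 40.1 and 44.9 CPM in the gonad, and Tcf21, a factor of gonadal and renal mesenchyme, was at 53.3 CPM and at 46.5 and 55.9 CPM. The homeobox genes Rhox5, Rhox6 and Rhox9, known from placenta and germ line, were at 173, 103 and 88.7 CPM in the 10x library and between 1.16 and 3.82 CPM in the gonad. Rbp4, the retinol carrier made by yolk sac and liver, was at 131 CPM and at 1.84 and 1.27 CPM. Stra8, the RA-induced gene of meiotic entry, was at 20.7 CPM and at 0.769 and 0.332 CPM.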

How the data were processed

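Bulk poly(A) RNA-seq of 3 V580_D6 and 3 E12.5_GC libraries was analysed together with 3 libraries each of V580_D4, V580_D8 and V580_D10. The authors deposited 1 table of FPKM values, in which 16 further columns belong to groups not compared here; the submitters' processing notes name Trim Galore, FastQC, HISAT2, SAMtools, featureCounts, RSEM and mm10, and which tool made the FPKM is not given in the sources used here. The authors also deposited raw gene counts of 2 E12.5 libraries (19518037 and 18060579 counts) and 10x UMI counts of V580_D6, of which 15315 of 15412 barcodes were kept (200 or more genes, 40% or less of UMIs mitochondrial) and summed; doublets were not removed. The members and gene lists were chosen with earlier results of these data known.

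Genes with at least 1 FPKM in at least 3 of the 15 libraries were tested (11512 of 13682) with limma-trend (3.58.1, R 4.3.3) on log2(FPKM + 1), in 1 fit over the 5 groups, with Benjamini-Hochberg adjustment over all genes tested. Because FPKM are not counts, no count model was used as the main test. Depth was recovered from the steps between low values: 97.0% of 22561 values under 30 fragments were within 0.05 of a whole number. An edgeR (4.0.16) fit on these recovered fragments, and a fit with the trend on exon length removed, were added after the data were seen. The other alternatives were a pseudocount of 0.1, other filters on low values, the 6 libraries alone, other fold thresholds, group-specific variances, a replicate block, 2 other scalings and leaving out each library. Lengths and positions came from GENCODE vM21 (GRCm38, which is mm10), and promoters from RefSeq GRCm38.p6. Tested on data simulated for V580_D6 against E12.5_GC over 11146 genes, the limma fit called 188 of 197 genes changed by 2 on the log2 scale and no unchanged gene. All simulated libraries had the same spread and no trend on exon length, unlike E12.5_GC, and only genes with many reads were changed. The simulation therefore does not measure false calls at the wider spread of the gonad libraries.

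Genes were named by a rule: the 12 largest called rises and falls whose libraries did not overlap and whose higher group averaged 5 FPKM or more, all members of the gonad primordium and ovarian supporting lists, and from each other list the 3 largest called changes each way, the 3 most abundant members and the most abundant member inside 2-fold. List members named beyond it were chosen after their values were seen. Some genes of the rule and of the lists are not reported here. An exact permutation test of 3 against 3 libraries cannot go below p = 0.1, so single genes were tested only in the fit across all genes. Counting intervals and floors cover counting error only.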

Additional observations from a re-analysis of the deposited data

How the results depend on the processing

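Of the alternatives run, none reversed the direction of a named gene called in the limma fit or in that alternative. Changes of sign in named genes called in neither were not counted. The 1747 genes called between V580_D6 and E12.5_GC became 7718 with no fold threshold and 1140 under limma's treat against 2-fold; the remaining settings kept the count within 1.5 times, from 1701 (lowest, leaving out 1 library) to 2568 (edgeR on recovered fragments), with 1739 after the length trend was removed and 1701 to 1859 when each library was left out. Scaling to equal sums gave 2430 calls, 57.6% of them higher in V580_D6 against 46.5% in the unscaled fit. The 8963 genes inside 2-fold ranged, over fits of the same genes, from 7780 (equal sums) to 9206 (without E12.5_GC replicate 2). The 585 genes called between V580_D6 and V580_D4 became 1054 with a pseudocount of 0.1, 5167 with no fold threshold, 254 under treat, 993 with equal sums and 1171 with edgeR. The 293 called between V580_D8 and V580_D6 became 599, 4737, 102, 503 and 701 under the same settings. The cause of these shifts was not tested, apart from the fold threshold, which the settings themselves change. Same-numbered libraries of the compared groups did not deviate together (correlations of 0.03, 0.0001 and 0.01), so the numbers do not pair the libraries; with the replicate block the counts were 1747, 585 and 293, and it changed no call among the 166 named genes tested. Dnajb1 was not called with the 6 libraries alone, and Twist1 not with median-ratio scaling (0.97) or edgeR. Counts of E12.5_GC replicates differed by 55.5 to 110 in chi-square per degree of freedom, where 1 is sampling noise, and those of V580_D6 by 1.78 to 2.93, so depth was not the main limit.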

Other observations

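Genes of X inactivation and of the Y chromosome had no row in the FPKM table, and their values are given here from the count files, chosen after they were seen. Xist, the RNA that silences an X chromosome in female cells, was at 1.89 CPM in the 10x library of V580_D6 and at 377 and 354 CPM in the 2 E12.5 gonad libraries deposited as counts. The Y-linked genes Ddx3y and Kdm5d were at 0.0491 and 0.0123 CPM in the 10x library, at 4.97 and 5.70 CPM (Ddx3y) and at 3.996 and 2.44 CPM (Kdm5d) in the gonad libraries. Imprinted RNAs without an FPKM row differed in both directions: H19 was at 1017 CPM in the 10x library and at 2296 and 2359 CPM in the gonad, while Meg3 was at 1955 CPM and at 655 and 721 CPM. Hba-a1, alpha globin, was at 1943 and 1666 CPM in the same gonad libraries and at 0.0184 CPM in the 10x library. The assays differ, so no test was made of these values.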
